A study of Homo sapiens with 6 samples.

Results

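Metallothioneins are short, cysteine-rich proteins that bind zinc and copper and trap toxic metals such as cadmium. Their genes lie side by side on the long arm of human chromosome 16, and most of them are switched on by the zinc sensor MTF1, which binds short metal response elements in their promoters. Glucocorticoids and oxidative stress also raise several of them, and in tumours single members of the family have often been found with methylated promoters. The family was described here in cells treated with decitabine (DAC), a cytidine analog that traps DNA methyltransferases, and its members were taken by symbol: MT1A, MT1B, MT1E, MT1F, MT1G, MT1H, MT1L, MT1M, MT1X and MT2A. All 10 were among the 23617 symbols of the MDA-MB-231 table, and 3 of them were among the 1854 symbols of the HMLER table.

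MDA-MB-231 cells come from a human breast cancer, and HMLER was obtained by transforming human mammary cells in vitro. RNA was sequenced from untreated cells and from cells given 10 µM DAC for 72 h, with 1 untreated and 1 DAC library of MDA-MB-231 and 2 untreated and 2 DAC libraries of HMLER. Each library came from pooled extractions, and the title of the untreated MDA-MB-231 library was followed although its cell line field reads MDA-MB-232. HMLER cells, with and without DAC, were grown in a medium that also held EGF, hydrocortisone (a glucocorticoid), puromycin and insulin.

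The values are FPKM, fragments scaled by transcript length and by library. The MDA-MB-231 table gives each library's FPKM with a lower and an upper bound from Cuffdiff, and with 1 library per condition no difference in that line has a replicate check or a test. The HMLER table gives 1 value per condition, merged by the authors over 2 libraries, and no spread between libraries. It lists only transcripts that were more than 2-fold higher after DAC, and no listed value after DAC lay under 1 FPKM. A gene may therefore be unlisted because it was not 2-fold higher or because it stayed low after DAC. The table holds no value for the other 7 members, which were not analysed here in that line. In MDA-MB-231 the mesenchymal marker VIM stood at 3066 FPKM untreated (bounds 0 to 10419) and at 1134 after DAC (120 to 2147). The keratin KRT18 was at 171 and 161 FPKM. Among genes chosen as low or absent in this line, the hormone receptors ESR1 and PGR were at 0 untreated and at 0.0150 and 0.0553 after DAC. CDH1 was at 0 and 0.179 FPKM. In contrast, EPCAM was at 7.90 and 9.78 FPKM and ERBB2 at 10.1 and 10.7, both above 1 FPKM in each library. Among markers of other cell types, the blood markers PTPRC and CD3E and the endothelial markers PECAM1 and CDH5 did not exceed 0.211 FPKM in either library, and of the stromal markers COL1A1 was at 0.853 FPKM untreated and 15.6 after DAC, PDGFRB at 0.217 and 1.44, and COL1A2 at 0 and 0.177. In bulk RNA, fewer cells expressing a gene and less RNA per cell cannot be told apart.

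In untreated MDA-MB-231 cells the family was carried by 3 genes. MT2A, the most abundant metallothionein of many human tissues, was listed at 1590 FPKM untreated (bounds 823 to 2357) and at 1263 after DAC (662 to 1865), a DAC/untreated ratio of 0.795. This placed it 29th among all symbols before and 26th after treatment. MT1E stood at 325 FPKM (178 to 472) and then 260 (142 to 379), a ratio of 0.802, and MT1X at 101 FPKM (38.5 to 163) and then 140 (63.2 to 217), a ratio of 1.39. For each of these genes the bounds of both libraries overlapped. Across all symbols at 1 FPKM or more in both libraries the DAC library stood at a median 0.908 of the untreated one, or -0.14 in log2. MT1X lies whole within a long non-coding RNA gene annotated on the same strand, and reads of both cannot be told apart there. Relative to the median ratio the log2 ratio was -0.19 for MT2A, -0.18 for MT1E and 0.62 for MT1X.

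The order of the abundant genes was the same in both libraries. The bounds of MT2A lay above those of MT1E before and after DAC. Those of MT1E lay above those of MT1X in the untreated library and overlapped with them after DAC. MT2A was 4.89 times as high as MT1E untreated and 4.85 times after DAC, whereas the ratio of MT1E to MT1X was 3.22 and then 1.86. MT2A made up 78.9% of the family's summed FPKM untreated and 75.5% after DAC, MT1E 16.1% and 15.6%, and MT1X 5.00% and 8.39%. The summed FPKM of the 10 members was 2016 and then 1673, a ratio of 0.830, and without MT2A it was 426 and then 409. The members took 0.342% of all FPKM in the untreated library and 0.348% in the DAC library, so their share of the transcriptome was nearly the same while the deposited FPKM of all transcripts summed to 589238 and 480455.

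The members' levels in MDA-MB-231 are drawn in order along the cluster, with the 3 abundant genes far above the rest in both libraries.

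**Figure D1:**
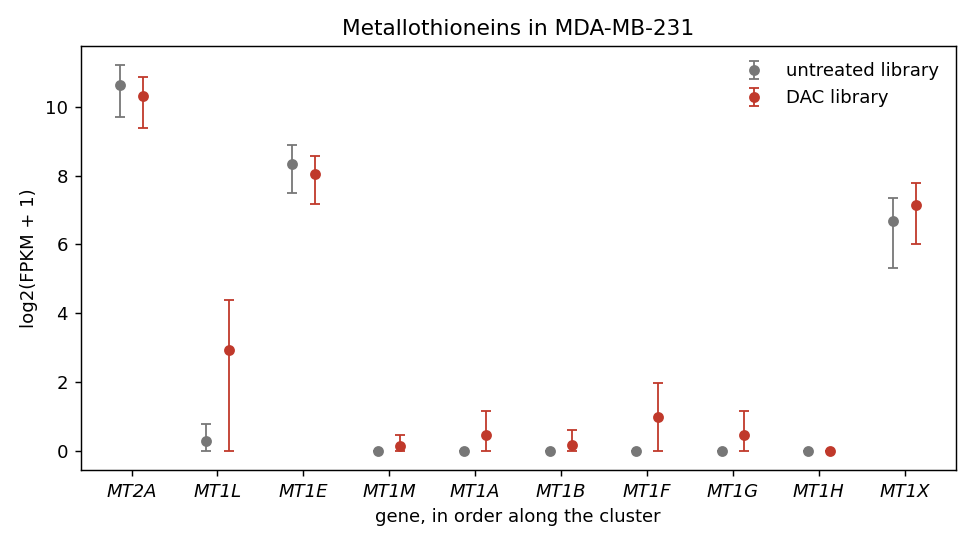
FPKM of the 10 metallothionein genes in MDA-MB-231 as log2(FPKM + 1), in order along the cluster. Points are single libraries (grey untreated, red DAC) and bars are the lower and upper bounds that Cuffdiff gave; MT2A, MT1E and MT1X lie above 100 FPKM in both libraries, MT1L goes from 0.211 to 6.59 FPKM, and the bounds overlap for every gene.

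Promoters were printed because 2 of the abundant and 2 of the nearly silent genes could be compared. RefSeq promoter windows (assembly GRCh38.p14) were matched by symbol for 4 of the 10 members, MT2A, MT1X, MT1B and MT1H, and not for MT1A, MT1E, MT1F, MT1G, MT1L and MT1M. Each is shown from 250 to 21 bases before its RefSeq start, on the plus strand. Each was found once in GRCh37 (hg19), at chr16:56642246-56642475 for MT2A, chr16:56716132-56716361 for MT1X, chr16:56685548-56685777 for MT1B and chr16:56703476-56703705 for MT1H. Capitals mark the core of the metal response element, TGCACNC or TGCGCNC on either strand.
MT2A: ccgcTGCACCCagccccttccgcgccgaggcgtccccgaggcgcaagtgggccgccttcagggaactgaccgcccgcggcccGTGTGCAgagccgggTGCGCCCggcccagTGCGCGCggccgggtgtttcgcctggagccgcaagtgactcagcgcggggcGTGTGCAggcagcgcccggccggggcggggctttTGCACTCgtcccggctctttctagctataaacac
MT1X: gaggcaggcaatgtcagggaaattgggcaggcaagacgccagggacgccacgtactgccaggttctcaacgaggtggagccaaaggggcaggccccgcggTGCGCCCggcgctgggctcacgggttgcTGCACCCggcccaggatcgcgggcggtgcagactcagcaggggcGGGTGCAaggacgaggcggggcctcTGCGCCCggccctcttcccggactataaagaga
MT1B: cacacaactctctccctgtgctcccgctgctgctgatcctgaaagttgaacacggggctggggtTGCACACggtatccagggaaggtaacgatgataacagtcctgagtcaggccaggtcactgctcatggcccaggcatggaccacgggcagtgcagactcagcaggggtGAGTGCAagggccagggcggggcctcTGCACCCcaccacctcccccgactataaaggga
MT1H: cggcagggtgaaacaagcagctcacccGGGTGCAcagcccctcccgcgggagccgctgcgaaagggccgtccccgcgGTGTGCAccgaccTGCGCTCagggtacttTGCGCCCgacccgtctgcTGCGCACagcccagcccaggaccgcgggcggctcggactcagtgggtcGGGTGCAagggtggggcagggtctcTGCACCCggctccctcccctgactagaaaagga

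The core was found 6 times in the MT2A window, 4 times in that of MT1X, 3 times in that of MT1B and 7 times in that of MT1H. At least 1 match was present in 22.5% of the 35116 windows of this length in the table, and 4 or more in 0.285%. The nearly silent MT1H held more matches than the abundant MT2A. A TATAAA box starting 29 or 30 bases before the start was present in MT2A, MT1X and MT1B, and MT1H had none. At any position of the window, TATAAA was found in 6.63% of all windows. CpG dinucleotides, the sites of DNA methylation, numbered 30 in MT2A, 21 in MT1H, 20 in MT1X and 7 in MT1B, where the median window held 9. Methylation itself was not analysed here, and a match of letters is not a bound site.

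The other 7 members were near the detection limit in untreated MDA-MB-231 cells. What 1 read is worth was worked out from single-transcript genes of 350 to 650 bases, in which 94 of 94 low values of the untreated and 126 of 126 of the DAC library lay within 0.1 of a whole number of reads. At the length of MT1A 1 read is worth 0.122 FPKM, and a count of 0, which allows up to 3 reads, allows up to 0.366 FPKM. On this scale MT2A corresponded to 14578 reads untreated and 11511 after DAC. Intervals and floors cover counting error only.

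MT1L, annotated as a pseudogene whose transcript is recorded as non-coding, was the single member that reached 1 FPKM and was past the 2-fold threshold in MDA-MB-231. It was listed at 0.211 FPKM untreated (bounds 0 to 0.731) and at 6.59 after DAC (0 to 19.8), a ratio of 31.2. These values correspond to 2 and 62 reads, and the exact 95% interval of the ratio was 8.28 to 263 for counting error alone. If 2 of these reads made up 1 pair, with 1 and 31 pairs, the interval would be 5.20 to 1272. Cuffdiff's bounds, which are wider, overlapped between both libraries. MT1L spans chr16:56651373-56652730, within a long non-coding RNA gene annotated on the same strand, and reads of the 2 genes cannot be told apart there. For the comparison of windows, a transcript of that long non-coding RNA gene stood in for MT1L. Of its 50-base windows, 27.5% were found with at most 2 mismatches in another transcript of the family, most often in MT1E. MT1E itself had 4182 and 3332 reads. The part of shared reads in the MT1L value was not tested.

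MT1F was listed at 0 untreated and at 0.996 FPKM after DAC (0 to 2.92), which is 10 reads and lies just under the filter of 1 FPKM used for counting. MT1A and MT1G were listed at 0 and then at 0.369 FPKM each, or 3 reads, which a count of 0 also allows. MT1B, which also overlaps a long non-coding RNA gene on its strand, went from 0 to 0.134 FPKM and MT1M from 0 to 0.10, 1 read each. MT1H was listed at 0 in both libraries. The genes MT1A, MT1B, MT1G and MT1M thus held 8 reads in all after DAC, and none of their differences was detectable at this depth.

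By the threshold of a ratio above 2 with at least 1 FPKM in at least 1 library, 1 of the 10 members counted as higher, against 6.05% of all 23617 symbols (11.5% of the 12396 symbols past that filter). None of the 10 counted as lower (ratio below 0.5), against 3.07% of all symbols (5.86% of those past the filter). Only 4 members passed the filter at all, and MT1L passed it through its DAC value alone. The bounds of the 2 libraries were apart for 0 of 10 members, for 0.758% of all symbols and for 1.44% of those past the filter. Of the 6 members listed at 0 untreated, 5 were above 0 after DAC, where 30.2% of the 7198 symbols listed at 0 untreated were above 0 after DAC. In the opposite direction, 365 of the 5386 symbols at 0 after DAC were above 0 untreated. The 7 scarce members together went from 0.211 to 8.56 FPKM, that is from 0.0105% to 0.512% of the family's sum. Most of this was MT1L, and the other 6 summed to 0 and 1.97 FPKM. Since these 7 are the members that were low untreated, the direction of their sum is partly set by that choice.

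In HMLER cells, 3 members and the brain-enriched relative MT3 were in the list of transcripts higher after DAC. MT1A, an inducible member, was listed at 0.537 FPKM untreated and at 8.30 after DAC, 15.5-fold higher. MT1M was listed at 1.58 and 11.96 FPKM, 7.58-fold higher, and MT1G at 8.04 and 19.2 FPKM, 2.39-fold higher. Every gene of that table is higher by construction, so its direction is no finding. Ratios were ranked among the 1783 listed symbols above 0 untreated, which leaves out 71 symbols listed at 0 untreated. The ratio of MT1A was above that of 89.9% of these 1783, that of MT1M above 79.1% and that of MT1G above 21.3%. Their median ratio was 3.46. MT3, which is best known from neurons, was listed at 0.847 and 5.11 FPKM, 6.03-fold higher. The share of listed members, 3 of 10, stands beside 7.85% of the MDA-MB-231 symbols that were listed for HMLER.

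The fold order and the order of added transcript differed in HMLER. MT1G had the smallest ratio of the 3 and the largest difference in FPKM, 11.1, against 10.4 for MT1M and 7.76 for MT1A. The 3 genes summed to 10.2 FPKM untreated and 39.4 after DAC, a ratio of 3.88. The same transcripts in MDA-MB-231 did not exceed 0.369 FPKM in either library, and MT3 was listed there at 0 and 0.50 FPKM, or 8 reads after DAC. The tables of both lines were normalised separately, so these levels are set side by side and their difference was not tested. No member passed the 2-fold and 1 FPKM threshold in both lines.

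**Figure D2:**
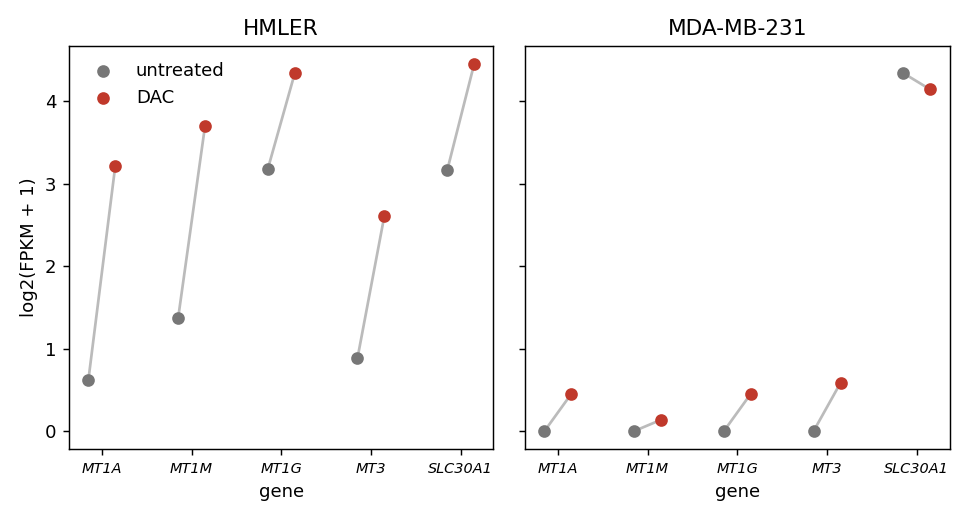
FPKM as log2(FPKM + 1) of the 3 metallothioneins listed for HMLER, of MT3 and of the zinc exporter SLC30A1, untreated (grey) and after DAC (red). HMLER points are the authors' values merged over 2 libraries and MDA-MB-231 points are single libraries. The 3 listed members lie between 0.537 and 19.2 FPKM in HMLER and at or under 0.369 FPKM in MDA-MB-231. MT3 is at 0.847 and 5.11 FPKM in HMLER and at 0 and 0.50 FPKM in the other line. For SLC30A1 the pair is 7.95 and 20.8 FPKM in HMLER, 19.2 and 16.6 FPKM in the other line.

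The 10 genes lie within 75.6 kb, at chr16:56642478-56718108 in hg19, all on the plus strand except MT1G. In MDA-MB-231 neighbouring genes of the cluster were far apart in level. MT1L, at 6.59 FPKM after DAC, lies 8.90 kb from the start of MT2A, at 1263 FPKM, and MT1E, at 260 FPKM, lies 17.1 kb from it. MT1M, MT1A, MT1B, MT1F, MT1G and MT1H lie between MT1E and MT1X and none of them reached 1 FPKM. The 3 members listed for HMLER come from this inner stretch, 24.1, 30.1 and 58.2 kb from the start of MT2A for MT1M, MT1A and MT1G. Among relatives in the cluster, MT4, MT1DP and MT1IP were listed at 0 in both MDA-MB-231 libraries and MT1JP at 0.230 FPKM untreated, or 2 reads, and 0 after DAC. The expression of MT1HL1 was not analysed here.

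Genes on either side of the cluster stayed within 2-fold. BBS2, a ciliary gene and the nearest listed gene before the cluster, was at 11.3 and 9.68 FPKM, and NUP93, a nuclear pore gene after it, at 53.1 and 41.5 FPKM. Of 10 neighbours chosen by position, 7 reached 1 FPKM, 0 counted as higher and 0 as lower, and their median log2 change (FPKM + 1) was -0.32, against -0.09 for all symbols past the filter. None of them was listed for HMLER.

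**Figure D3:**
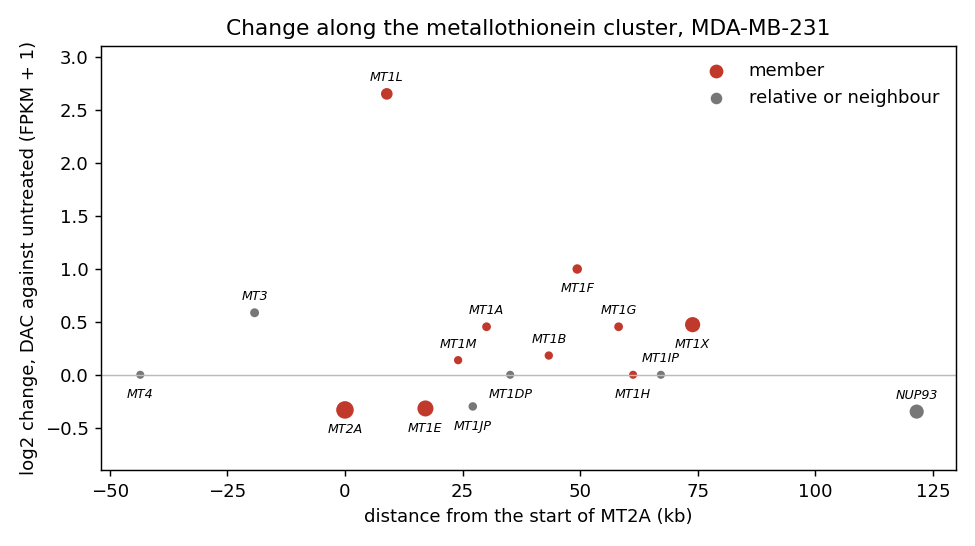
Log2 change between the DAC and the untreated MDA-MB-231 library (FPKM + 1) against the distance from the start of MT2A in kb; red marks the members, grey their relatives and a neighbour, and larger points have higher FPKM. MT1L, 8.90 kb from MT2A, stands highest at 2.65, while MT2A (-0.33), MT1E (-0.32) and MT1X (0.47) stay within 0.5 of 0.

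The genes arose by duplication, and their transcripts are alike. Between the 45 pairs of members, the identity of spliced GENCODE transcripts over aligned bases ran from 75.5% for MT1E and MT1G to 90.4% for MT1G and MT1H, with a median of 81.2%. The GENCODE transcript nearest in length was used, except for MT1L. For MT1E it has 332 bases where the quantified one has 506, so the likeness of MT1E covers only part of it. For MT1L a transcript of the long non-coding RNA gene over its locus was taken, with 478 bases against 426. Reads of 50 bases would often have a near match: the share of windows found exactly in another transcript of the family ran from 0% for MT1B to 20.4% for MT1H, and with at most 2 mismatches from 11.6% for MT1B to 54.2% for MT1M. With windows of 100 bases, exact copies were found for 1 member, MT1H, in 3.36% of its windows. Windows of MT1H with at most 2 mismatches were found most often in its relative MT1HL1. Among the genes listed for HMLER, 36.3% of the 50-base windows of MT1A, 54.2% of those of MT1M and 39.5% of those of MT1G had such a near match. All 7 values of the scarce members above 0 lay within 0.1 of a whole number of reads in MDA-MB-231. The fit behind this scale started from a line set at the lengths of MT1F and MT3, so this check is not fully independent. The read length of these libraries is not given in the sources used here, so values of single members remain uncertain where reads could be shared.

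**Figure D4:**
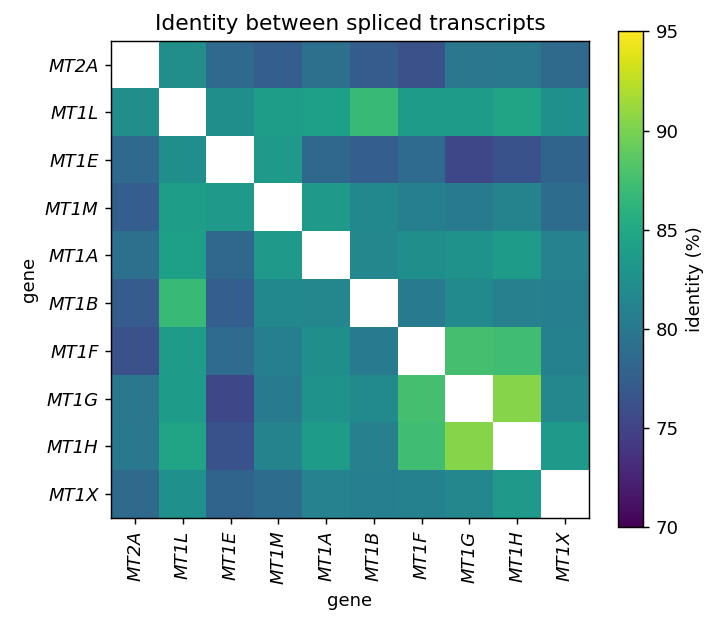
Percent identity over aligned bases between the spliced transcripts of the 10 members, in order along the cluster. For MT1L a transcript of the long non-coding RNA gene over its locus was used. Both axes list the genes and the diagonal is left blank. The brightest pair is MT1G and MT1H at 90.4%, and MT1E with MT1G is the darkest at 75.5%.

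Other genes of metal handling were described from lists, whose counts stand beside 11.5% higher and 5.86% lower among all symbols past the filter. MTF1, the sensor that activates metallothioneins when zinc rises, was at 3.75 FPKM untreated and 3.66 after DAC in MDA-MB-231 and was not listed for HMLER. Of the 10 SLC30 genes listed as zinc exporters, most of which carry zinc out of the cytosol, 7 reached 1 FPKM in MDA-MB-231. Of these 1 counted as higher and 0 as lower, with a median log2 change of -0.07. The one that counted was SLC30A3, a vesicular zinc transporter, at 1.18 and 6.75 FPKM with overlapping bounds, and it was also listed for HMLER, at 0.360 and 2.17 FPKM. SLC30A1, the plasma membrane exporter and itself a target of MTF1, was at 19.2 and 16.6 FPKM in MDA-MB-231, a ratio of 0.865. In HMLER it was listed at 7.95 and 20.8 FPKM, 2.62-fold higher, more than 29.6% of the ratios of listed symbols above 0 untreated.

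Of the 14 zinc importers, 10 reached 1 FPKM in MDA-MB-231, 0 counted as higher and 1 as lower, with a median log2 change of -0.19. SLC39A7 was listed at 0 in all of its 12 transcripts, 10 of which are annotated on alternative haplotype sequences of hg19, and its 0 was not read as absence. The lower one was SLC39A11, whose main transcript was at 5.49 and 0.00212 FPKM with bounds apart, and whose transcripts summed to 5.77 and 1.25 FPKM. A transcript of SLC39A8, an importer of zinc and manganese, was listed for HMLER at 0.466 and 1.61 FPKM. All 10 genes of copper handling reached 1 FPKM, 2 counted as higher and 1 as lower, with a median log2 change of 0.11. The higher ones were the copper pumps ATP7A, at 0.524 and 1.19 FPKM, and ATP7B, at 1.07 and 2.47 FPKM. The lower one was COMMD1, which acts in copper transport, at 45.8 and 15.3 FPKM. For ATP7A, ATP7B and COMMD1 the bounds of both libraries overlapped. ATP7B and the copper transporter SLC31A2 were also listed for HMLER, at 0.833 and 1.82 FPKM and at 10.4 and 36.5 FPKM.

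**Figure D5:**
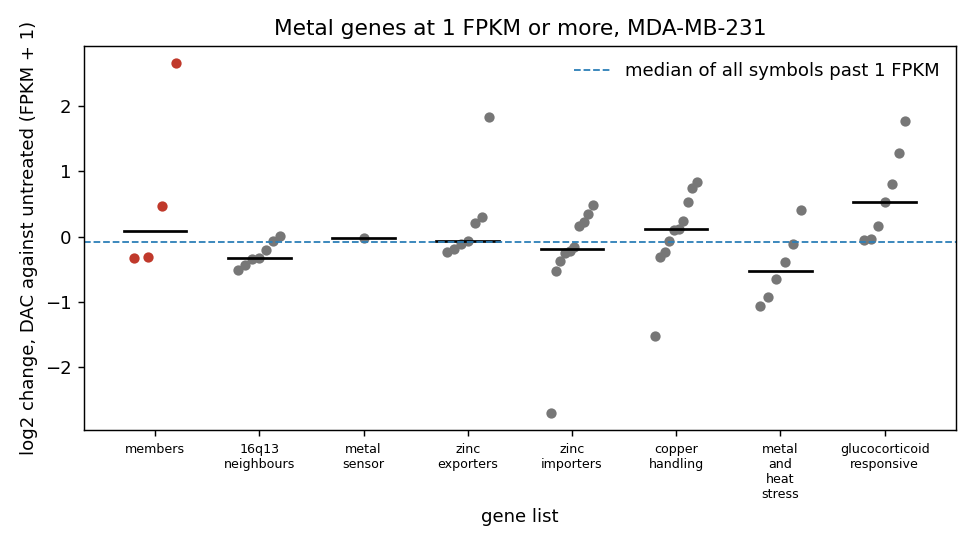
Log2 change (FPKM + 1) between the DAC and the untreated MDA-MB-231 library for genes at 1 FPKM or more in at least 1 library, by list; each point is a gene, black bars are list medians and the dashed line is the median of all symbols past the filter, -0.09. Of the 4 metallothioneins shown in red, MT2A and MT1E lie at -0.33 and -0.32, MT1X at 0.47 and MT1L at 2.65.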

How the data were processed

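The authors prepared libraries with the TruSeq RNA kit, aligned reads to hg19 with TopHat2 and obtained the deposited FPKM per RefSeq transcript with Cuffdiff on Galaxy. Versions, read length, library layout and strand setting are not given in the sources used here. The deposited tables also hold the authors' own fold changes (both lines) and test statistics, p and q (HMLER), which were not used.

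A symbol with several transcripts was represented by the one highest in the sum of both libraries. Ratios used no pseudocount, and log2 changes a pseudocount of 1 FPKM, which understates changes of low genes. Counting asked for 1 FPKM in at least 1 library and a ratio above 2 or below 0.5. No test across genes was possible. The reads behind low values were inferred from single-transcript genes of 350 to 650 bases. The family was left out of this fit, but the line it started from was set at the lengths of MT1F and MT3. Transcripts were aligned with Biopython 1.88, and their windows compared by mismatches. The 2-fold calls were run on simulated data without noise over 12396 genes, where 200 of 200 genes changed 4-fold were called and 0 others. Without noise the cutoff fixes this outcome, so it checks the code only and not calls made from single libraries.

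Members and lists were chosen with earlier results of these data known. Named by rule were all members and relatives, MTF1, SLC30A1, BBS2 and NUP93, and up to 5 genes per list past 2-fold. Some other genes of the lists were named outside this rule, among them HMOX1, FKBP5 and DUSP1. The share of HMLER symbols listed was counted over the symbols of the MDA-MB-231 table. Alternatives were other filters, pseudocounts, scaling, summed transcripts, transcripts with status OK and bounds that must not overlap. Scripts ran in Python 3.11.15 with pandas 2.3.3, numpy 2.4.6, scipy 1.17.1 and matplotlib 3.10.9.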

Additional observations from a re-analysis of the deposited data

Results flagged for a closer look

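SLC30A1, the zinc exporter, was lower after DAC in MDA-MB-231, with a ratio of 0.865 and overlapping bounds (0.952 relative to the median ratio of all symbols, or -0.07 in log2), and was listed as 2.62-fold higher in HMLER. The difference between the lines was not tested, since neither line has values per replicate and the tables were normalised separately.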

How the results depend on the processing

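The count of members higher in MDA-MB-231, 1 with the filter of 1 FPKM in at least 1 library, was 6 with no filter on low values, 0 when 1 FPKM was asked for in both conditions and 0 when bounds were not to overlap. The count of members higher in both lines, 0, was 3 with no filter. The 5 members added without the filter were all listed at 0 in the untreated library. Among lists, the count of stress genes lower, 1, was 0 after division by the median ratio, an alternative chosen after seeing the data. The other 52 values of counts, sums and medians under an alternative stayed near the main one. Counts and sums stayed within 1.5 times it. Medians of log2 change differed from it by less than the log2 of 1.5, which allows a change of sign. The median log2 change of the 4 members past the filter, 0.08, was 0.32 with no filter and 0.22 after division by the median ratio. It was -0.32 when 1 FPKM was asked for in both conditions, which leaves out MT1L. With a pseudocount of 0.1 in place of 1, the log2 change of 6 low members moved to between 1.0 and 4.43. No paired analysis was possible because the MDA-MB-231 line has 1 library per condition and the HMLER values are merged over replicates. For the same reason no replicate could be left out. Depth limits MT1A, MT1B, MT1G, MT1H and MT1M, which had 3 reads or fewer in each MDA-MB-231 library.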

Other observations

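Of 8 glucocorticoid-responsive genes, 7 reached 1 FPKM in MDA-MB-231, 3 counted as higher after DAC and 0 as lower, with a median log2 change of 0.53; among all symbols past the filter 11.5% counted as higher and 5.86% as lower. TSC22D3, which restrains inflammatory signalling, was at 0.728 and 4.87 FPKM in its main transcript, and its transcripts summed to 3.69 and 6.38 FPKM, less than 2-fold apart. The clock gene PER1 was at 2.86 and 5.74 FPKM, a ratio of 2.01, and the transcription factor KLF9 at 0.375 and 2.34 FPKM. For TSC22D3, PER1 and KLF9 the bounds of both libraries overlapped. FKBP5 and DUSP1 were at 26.7 and 25.9 FPKM and at 36.4 and 35.0 FPKM. SGK1 and CEBPD were at 25.8 and 28.8 FPKM and at 3.76 and 5.89 FPKM. None of the 8 was listed for HMLER, whose medium held hydrocortisone in both conditions.

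Of 9 genes of metal and heat stress, 6 reached 1 FPKM in MDA-MB-231, 0 counted as higher and 1 as lower, with a median log2 change of -0.52, where 5.86% of all symbols past the filter counted as lower. HSPA8, a constitutive chaperone, was at 1572 FPKM untreated (bounds 0 to 3354) and at 751 after DAC (174 to 1328), and once values were divided by the all-symbol median ratio it did not count as lower. HSPA1A and HSPA1B, which were under 1 FPKM, each have 4 of 5 transcripts on alternative haplotype sequences of hg19, and their low values were not read as absence. HMOX1, the haem oxygenase that cadmium and oxidants induce, was at 9.88 and 13.4 FPKM. The remaining genes past the filter were lower, within 2-fold and with overlapping bounds. Their ratios were 0.522 for DNAJB1, 0.635 for BAG3, 0.758 for HSPH1 and 0.920 for HSPB1. None of the 9 was listed for HMLER.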
